A study of Mus musculus with 4 samples.

Results

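Regulatory T cells (Treg) that had been transduced and cultured were set against T cells taken fresh from the mouse. The cultured side held 2 arrays, titled si-Eos Treg and si-RL Treg, and the fresh side held 2 arrays, titled Treg and naïve, so the comparison used all 4 arrays of the series. All cells came from spleen and lymph nodes of Balb/C mice. The fresh samples, neither of them transduced, were naive T cells, sorted as CD4+CD25-CD62L-high, and natural Treg, sorted as CD4+CD25+. For the cultured samples, CD25-enriched natural Treg received a lentivirus that carried a hairpin RNA against Eos (si-Eos) or against Renilla luciferase (si-RL, a gene that mouse cells lack). They were then kept for 60 h in medium with human IL-2 and sorted for the GFP reporter. Eos, encoded by Ikzf4, is a zinc-finger protein that works with Foxp3, the transcription factor that defines Treg.

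Both sides thus joined unlike cells, and neither pair was a pair of replicates: each group was 1 array, so the design allows no test. Transduction, culture, IL-2 and the GFP sort came together in both cultured samples, and no naive T cells were cultured, so these steps cannot be told apart. A gene was therefore counted only where both cultured arrays lay on the same side of both fresh arrays. Its gap is the difference between the nearest cultured and the nearest fresh array. Levels are log2 of the processed probe signal minus the 75th percentile of that array, so 0 marks the 75th percentile and a gap of 1 is 2-fold. Where a side is given by a pair of levels, naive T precedes Treg, and the si-Eos-labelled library precedes the si-RL-labelled library. The ± beside a gap is the scanner software's error of the 2 spots, a technical error only.

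Resting T cells are small and meet most of their energy needs by respiration, and T cells that receive IL-2 grow, divide and turn to glycolysis. The factor HIF-1 raises glycolytic genes when oxygen is scarce or growth signals are strong. The factor p53 is stabilised by DNA damage and other stress, and its targets halt the cell cycle or start apoptosis. Type I interferon keeps a large set of antiviral genes switched on, even at low interferon levels.

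Between 64.0% and 68.3% of probes were well above background on an array, and all 4 arrays lay on 1 slide in 1 scan. Ikzf4 read higher in the si-Eos-labelled library than in the si-RL-labelled library on all 3 of its probes, by 0.93 to 1.96 on the log2 scale, which goes against the labels. Foxp3 stood at -2.23 and 2.18 in the fresh arrays and at 3.05 and -1.25 in the cultured arrays. The si-RL-labelled library thus lay nearer to naive T cells than to Treg for this defining Treg gene, and likewise for Ikzf2 (0.93, against 0.35 in naive T and 4.88 in Treg). The Treg marker Ctla4 went the same way (1.92, against 0.55 in naive T and 4.20 in Treg). The marker Il2ra, which encodes CD25, did not: it read 2.11, against -3.68 in naive T and 1.65 in Treg. Exchanging the hairpin labels would leave the comparison of both cultured with both fresh arrays as it is. T cell markers were present throughout: the 8 genes summed, in units of the 75th percentile, to 320 and 276 in the fresh arrays and to 266 and 171 in the cultured ones.

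Of 27593 genes on the array, 16449 had a probe well above background on all 4 arrays. Both cultured arrays lay above both fresh arrays in 3849 of these (23.4%) and below them in 3659 (22.2%), and the ranges of the sides overlapped in 8941 (54.4%). The gap reached 2-fold upward in 335 genes (2.04%) and downward in 387 (2.35%). Among the higher genes the median gap was 1.39, and 60 were at least 4-fold apart. Among the lower genes the median was -1.50, and 125 were at least 4-fold apart, so the wider gaps lay more often on the lower side. The gap exceeded the differences within both sides in 268 of the 335 higher genes and in 352 of the 387 lower genes. Over all measured genes the median difference between the fresh arrays was 0.24, and that between the cultured arrays was 0.50, both without regard to sign. Just inside the 2-fold line lay Ect2 (1.0003) and U26471 (-1.0024), and just outside it LOC631366 (0.9966) and Tcaim (-0.9990).

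**Figure D1:**
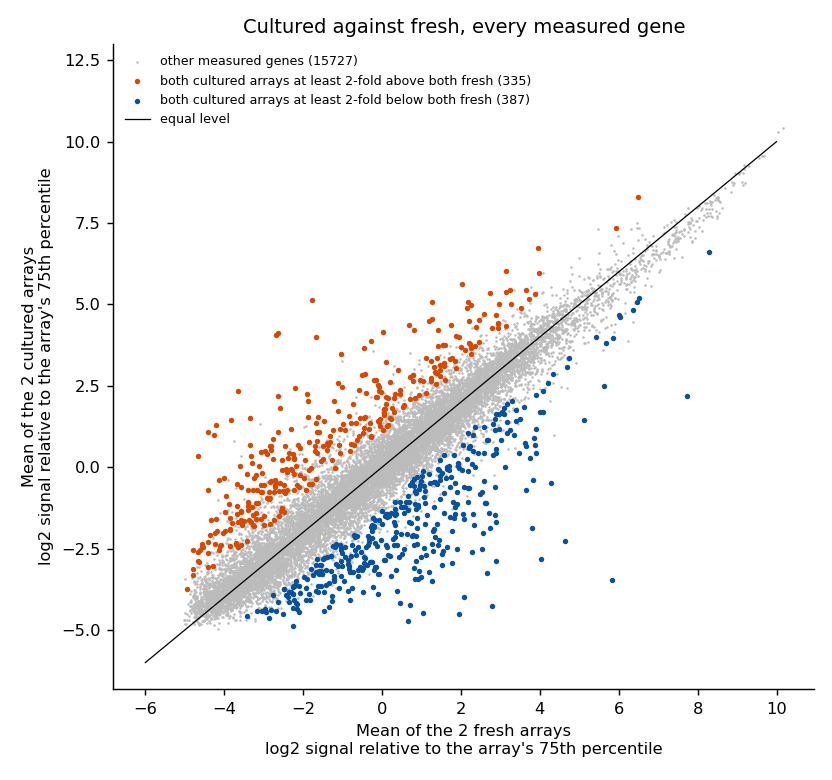
Mean level of each measured gene in the 2 cultured arrays (vertical axis) against its mean in the 2 fresh arrays (horizontal axis), both as log2 signal relative to the array's 75th percentile. Orange points mark the 335 genes with a gap of at least 2-fold upward and blue points the 387 with one downward, and the widest distances from the line of equal level lie among the blue points.

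Fresh Treg and fresh naive T cells did not contribute alike to these genes. Treg lay above naive T in 243 of the 335 higher genes (72.5%), compared with 47.3% of all measured genes, and in 53.5% of the lower genes. The cultured libraries were more even, with the si-Eos-labelled library above the si-RL-labelled library in 50.1% of the higher genes, 47.5% of the lower genes and 52.7% of all. Because an array can only narrow a gap, leaving one out adds genes: the higher and lower counts were 424 and 566 without naive T, and 953 and 736 without Treg. They were 864 and 819 without the si-Eos-labelled library, and 1136 and 1278 without the si-RL-labelled library. With arrays scaled to their spike-in controls, the counts became 185 higher and 601 lower, which moved the higher genes from 46.4% to 23.5% of all genes 2-fold apart. That scaling shifted the median difference of all genes from 0.01 to -0.22.

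Genes known as p53 targets were higher in both cultured arrays. Of 26 measured members, 14 (53.8%) were at least 2-fold higher, against 2.04% of all genes, and 4 more were higher by less. The list median, taken over members as mean cultured minus mean fresh level, was 1.88, beside 0.01 for all genes. Phlda3, whose product blocks activation of the kinase Akt, read -2.82 and -0.75 in the fresh arrays and 4.74 and 5.53 in the cultured arrays. Both cultured levels stood far above both fresh ones, with a gap of 5.49 ± 0.20, or 45.1-fold. Its probe lies at chr1:137585476-137585535 (mm8). Cdkn1a, the cell cycle inhibitor p21, was not well above background in naive T cells. It read -4.81 in Treg, 2.75 in the si-Eos-labelled library and 2.14 in the si-RL-labelled library, and was at least 124-fold higher in the cultured arrays.

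Several branches of the p53 response were represented among these 14 genes. Of the growth-restraining targets, Sesn2 (sestrin 2, an inhibitor of mTORC1) stood at -0.69 and 0.16 against 3.95 and 3.83, a gap of 3.68 ± 0.20. Its other measured probe lay on the same side. Gtse1, which binds p53 and microtubules, stood at -4.22 and -2.49 against 0.67 and 0.71 (gap 3.16 ± 0.21). Zmat3, an RNA-binding zinc-finger gene, read -1.38 and -0.66 against 2.50 and 2.46 (gap 3.11 ± 0.20). In each of these genes the cultured libraries were nearly equal. Ccng1 (cyclin G1) was narrow on both sides, at 1.75 and 1.73 against 4.32 and 4.39, which left a gap of 2.57.

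The apoptotic p53 targets separated too. Bbc3, which encodes the BH3-only protein PUMA, read 2.15 and 2.13 in the fresh arrays and 4.23 and 5.55 in the cultured ones (gap 2.08 ± 0.20). Bax, a pore-forming member of the BCL-2 family, read 1.30 and 1.20 against 2.77 and 3.73 (gap 1.47 ± 0.07). Apaf1, the scaffold of the apoptosome, read 0.02 and 0.16 against 1.54 and 2.74 (gap 1.39 ± 0.20). The death receptor gene Tnfrsf10b was close on each side, at -0.79 and -1.19 against 1.36 and 1.30 (gap 2.09 ± 0.20). Mdm2, the ubiquitin ligase that p53 raises against itself, was just past 2-fold at 1.38 and 1.11 against 2.41 and 2.87 (gap 1.03). It fell short of 2-fold with median, quantile or spike-in scaling. Bbc3, Bax, Apaf1 and Tnfrsf10b were also the 4 members of the BCL-2 family and apoptosis list that reached 2-fold. They were 4 of 28 measured (14.3%, beside 2.04% of all genes). Leaving out fresh Treg, the si-Eos-labelled or the si-RL-labelled library raised that count to 8, 7 and 9. The survival genes Bcl2 (gap 0.22) and Mcl1 (gap 0.0032) barely separated.

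Not every p53 target was higher. The 5 on the lower side did not reach 2-fold: the growth-restraining gene Btg2 (gap -0.47), Gdf15 (-0.48), the ribonucleotide reductase subunit Rrm2b (-0.67) and the DNA repair genes Ddb2 (-0.33) and Xpc (-0.17). Btg2 is also an immediate early gene, and it read 5.63 and 5.36 in the fresh arrays against 3.42 and 4.89. Sesn1, a close relative of Sesn2, overlapped, at 3.33 and 3.26 against 1.92 and 3.60. Without the si-RL-labelled library, 14 members stayed 2-fold higher and 4 became 2-fold lower, and without the si-Eos-labelled library, 16 were higher and none was 2-fold lower.

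Glycolysis had the largest share of members on the higher side among the 36 lists. Of 22 measured genes, 21 were higher in both cultured arrays, against 23.4% of all genes, and the remaining gene, Pfkfb4, overlapped. At least 2-fold higher were 14 (63.6%, beside 2.04% of all genes). The list median was 1.76. Fresh naive T cells and Treg differed by a median of 0.24 without regard to sign, and 2 of the 22 members were 2-fold apart between them. Hk2 and Slc16a3 had the widest gaps, whereas the related genes Hk1 (0.69) and Slc16a1 (0.57) and the glucose transporter gene Slc2a3 (0.06) had narrow ones. Hk2, hexokinase 2, read -3.56 and 0.22 in the fresh arrays and 4.03 and 3.95 in the cultured ones (gap 3.72 ± 0.20, or 13.2-fold). Here fresh Treg alone stood 3.78 above naive T cells. Slc16a3, the lactate exporter MCT4, read -1.40 and -0.67 against 3.21 and 3.75 (gap 3.89 ± 0.20, or 14.8-fold).

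Other genes of the pathway followed. Tpi1, triosephosphate isomerase, read 1.69 and 2.37 against 5.52 and 5.76 (gap 3.15 ± 0.20). Pgk1, phosphoglycerate kinase, was almost equal within each side, at 3.88 and 4.05 against 6.72 and 6.72 (gap 2.67). Aldoc, an aldolase, read -2.13 and -1.62 against 1.23 and 1.84 (gap 2.85 ± 0.21). The other 9 past 2-fold were Eno2 (2.27), Pfkp (1.82), Pgam1 (1.70), the glucose transporter Slc2a1 (1.68), Eno1 (1.42), Aldoa (1.40), Ldha (1.28), Pfkl (1.26) and Pkm (1.15), each with its gap. Of these, Eno2 fell short of 2-fold with normexp background correction, Pfkl and Pkm with spike-in scaling, and Pkm also with a gene's probes averaged. Gapdh, often used as a constant reference, was higher as well, at 4.15 and 4.41 against 5.86 and 5.18 (gap 0.77). Respiration genes mostly did not separate: of 46 oxidative phosphorylation genes, 33 overlapped. The others were 9 higher (19.6%, beside 23.4% of all genes) and 4 lower (8.7%, beside 22.2%). None reached 2-fold (2 lower without the si-Eos-labelled library), and the list median was 0.08.

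Genes of the hypoxia response, many of them HIF-1 targets, were higher in 22 of 26 measured members (84.6%, beside 23.4% of all genes). At least 2-fold higher were 11 (42.3%, beside 2.04% of all genes), and the list median was 1.56. Bnip3, a mitochondrial BH3-like protein that promotes mitophagy, read -0.50 and -0.41 against 3.43 and 3.91 (gap 3.84 ± 0.20, or 14.4-fold). Vegfa, the endothelial growth factor, read -2.47 and -2.81 against 1.01 and 3.37 (gap 3.48 ± 0.21), and its other measured probe lay on the same side. Egln3, a prolyl hydroxylase that marks HIF for destruction, read -3.63 and -1.53 against 2.20 and 1.47 (gap 2.99 ± 0.21). Ddit4, the mTORC1 inhibitor REDD1, read 2.11 and 2.27 against 4.91 and 5.26 (gap 2.65 ± 0.20). The list median was -0.46 for the si-Eos-labelled library minus the si-RL-labelled library, and some members were high in the latter alone. Pdk1, which closes off the mitochondrial use of pyruvate, read 0.49 and -0.50 in the fresh arrays, -0.35 in the si-Eos-labelled library and 3.31 in the si-RL-labelled library, and so overlapped. Ankrd37 had 0.45 and 3.37 in the cultured arrays and a gap of only 0.43. Car9 alone was lower, by -0.12. Without the si-Eos-labelled library 18 members were 2-fold higher, and without the si-RL-labelled library 14 were.

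**Figure D2:**
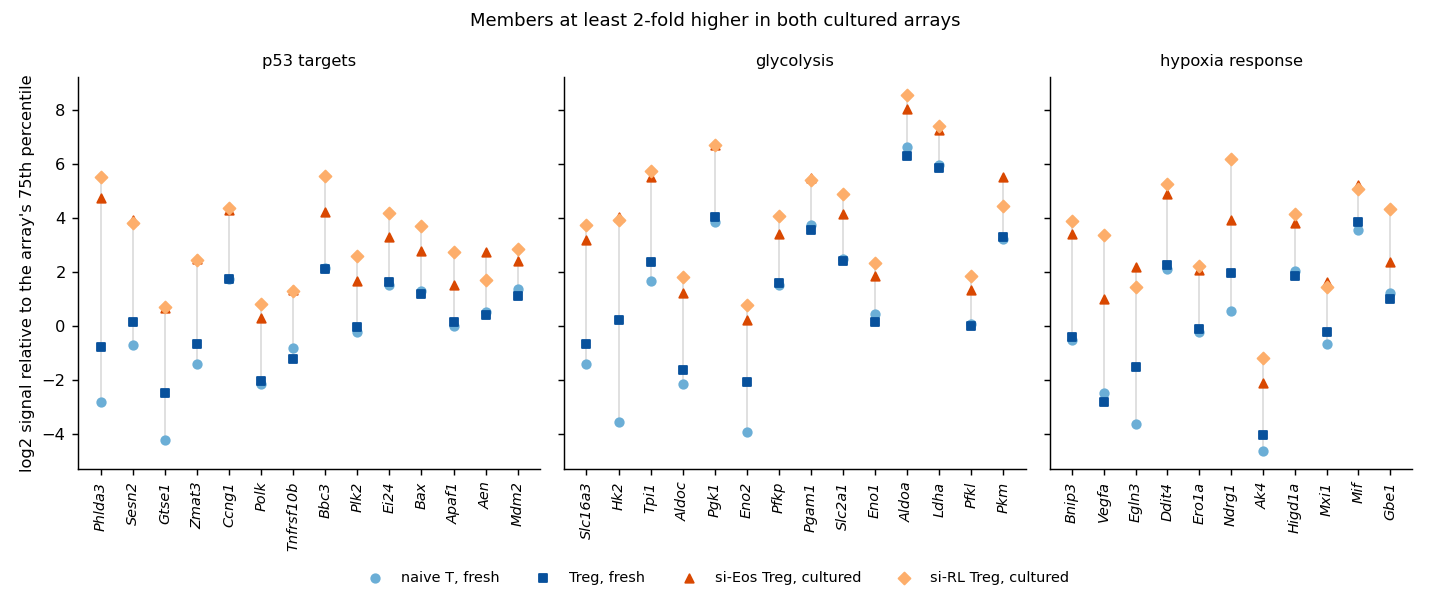
Level of each gene on each of the 4 arrays (vertical axis, log2 signal relative to the array's 75th percentile) for the members of 3 gene lists with a gap of at least 2-fold upward, ordered by gap. Blue symbols are the fresh arrays and orange symbols the cultured arrays. In all 14, 14 and 11 genes both orange symbols lie above both blue ones, and Vegfa, Ndrg1 and Gbe1 show the si-RL-labelled library well above the si-Eos-labelled library.

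Since these genes moved together and HIF-1 is known to bind the core letters ACGTG, promoters of the glycolysis and hypoxia genes were searched for that core on both strands, in the 250 bases before the start given by RefSeq (GRCm38.p6). The core is also part of the E-box CACGTG, to which other factors bind. It was found in 15 of the 24 genes at least 2-fold higher that had a window (62.5%) and in 23 of 43 measured members with one (53.5%). Of all 27025 genes with a window, 4998 (18.5%) held it, as did 24.0% of the 10570 measured genes with a window. Of all 242 genes at least 2-fold higher that had a window, whatever their list, 79 (32.6%) held it. Under 80% of the measured genes, and of those 2-fold higher, had a window, so a comparison with the shares of these sets is void. Genes can have several windows. Counted by window, the core was in 42.2% of the members' windows, 20.8% of those of measured genes and 16.6% of all windows. Because many members were listed as HIF-1 targets, a higher share was built into the lists, and no conclusion is drawn from it. The 4 genes with the widest gaps and a match within 150 bases of the start are printed with matches in capitals; the coordinates are Slc16a3 chr11:120948917-120949066, plus strand; Bnip3 chr7:138909507-138909656, minus strand; Hk2 chr6:82774455-82774604, minus strand; and Pgk1 chrX:106186950-106187099, plus strand.
Slc16a3: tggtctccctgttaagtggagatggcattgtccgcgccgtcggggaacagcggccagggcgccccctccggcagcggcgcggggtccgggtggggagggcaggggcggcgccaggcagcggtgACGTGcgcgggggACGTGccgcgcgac
Bnip3: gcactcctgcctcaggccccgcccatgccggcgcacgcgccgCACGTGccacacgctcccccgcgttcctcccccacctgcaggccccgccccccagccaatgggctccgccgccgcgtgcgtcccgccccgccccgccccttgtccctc
Hk2: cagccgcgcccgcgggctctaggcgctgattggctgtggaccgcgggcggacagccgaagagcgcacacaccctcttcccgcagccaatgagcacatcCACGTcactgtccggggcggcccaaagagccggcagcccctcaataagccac
Pgk1: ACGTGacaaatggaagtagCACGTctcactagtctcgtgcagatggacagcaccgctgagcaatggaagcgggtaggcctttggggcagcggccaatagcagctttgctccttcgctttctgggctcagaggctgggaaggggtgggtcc
Slc16a3 held the core at 2 places close to its start, and Bnip3 held it as the palindrome CACGTG, read once from each strand. A match is a run of letters only, and binding was not measured.

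IL-2 acts through the kinases JAK1 and JAK3 on STAT5, and human IL-2 was in the culture medium. Of 20 measured IL-2 and STAT5 target genes, 12 (60.0%, beside 23.4% of all genes) were higher in both cultured arrays. At least 2-fold higher were 6 (30.0%, beside 2.04% of all genes), and the list median was 1.78. Here the fresh arrays themselves differed, since Treg lay above naive T cells by a median of 0.91. Besides Gzmb, described among the granzymes, the feedback inhibitors Socs2, Cish and Socs1 had gaps of 1.45, 1.34 and 1.13. Socs2 read -2.36 and 2.41 in the fresh arrays and 4.44 and 3.86 in the cultured ones, so its gap was smaller than the difference between the fresh arrays. Myc, a driver of growth and metabolism, was even on both sides, at 2.84 and 3.08 against 4.89 and 5.17 (gap 1.80 ± 0.06), and its 2 other measured probes lay on the same side. Cdk6, a G1 kinase, read -0.34 and 1.97 against 4.15 and 4.29 (gap 2.18 ± 0.20). Il2ra (CD25), on which the cells had been selected, read -3.68 and 1.65 against 4.44 and 2.11, a gap of 0.46. With spike-in scaling Cish and Socs1 no longer reached 2-fold. Without fresh Treg 11 members were 2-fold higher, and without the si-RL-labelled library 10 were.

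Granzymes, the serine proteases of cytotoxic granules, were among the widest gaps, with uneven levels in the cultured arrays. Gzmb read -3.48 and -1.80 in the fresh arrays, 6.08 in the si-Eos-labelled library and 2.19 in the si-RL-labelled library (gap 3.99 ± 0.21, or 15.9-fold). Gzmd read -3.43 and -3.24 against 3.03 and -0.01 (gap 3.23 ± 0.22), and it fell short of 2-fold with normexp background correction. Gzmc followed at a gap of 0.73. Defining markers of NK and CD8 T cells were not higher alongside: Cd8a and Klrb1c overlapped, Cd8b1 was lower by -0.29, and the 5 markers summed to 5.74 and 3.41 in the fresh arrays and to 3.43 and 3.01 in the cultured ones.

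Mitosis genes were higher in 22 of 31 measured members (71.0%, beside 23.4% of all genes), but in only 4 (12.9%, beside 2.04%) by 2-fold. Fresh Treg already stood a median of 2.04 above naive T cells. Ccna2, cyclin A2, shows the order, with -1.22 and 1.05 in the fresh arrays and 2.28 and 2.40 in the cultured ones (gap 1.23 ± 0.20). Mki67, the proliferation antigen, followed the same order at 0.22 and 2.74 against 3.56 and 3.31 (gap 0.57). With spike-in scaling none of the mitosis genes reached 2-fold, whereas without fresh Treg 26 did, and without the si-RL-labelled library 13 did. Genes of DNA replication and the G1/S transition behaved otherwise: 5 of 34 were higher (14.7%, beside 23.4% of all genes). None was higher by 2-fold (11 without fresh Treg, 4 without the si-RL-labelled library). The other 29 overlapped, as did 54.4% of all genes. Mcm5, a subunit of the replicative helicase, read 2.08 and 2.93 in the fresh arrays and 3.34 and 0.99 in the cultured ones. The si-RL-labelled library was thus below both fresh arrays for Mcm5 but above them for Ccna2. Rrm2, ribonucleotide reductase M2, came closest to 2-fold on this list, at -2.02 and 0.70 against 1.63 and 1.72 (gap 0.93).

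The remaining wide gaps upward fell on genes of varied roles. Psrc1, a microtubule-binding protein of the mitotic spindle, had the widest gap of the 335 higher genes, at -3.62 and -1.74 against 3.91 and 4.25 (gap 5.65 ± 0.21, or 50.2-fold). Its probe lies at chr3:108516084-108516143 (mm8), and 2 other measured probes lay on the same side. Stc2, a secreted glycoprotein, read -4.53 and -4.30 against 0.98 and 1.20 (gap 5.28 ± 0.28). Dyrk3, a kinase, read -4.19 and -4.22 against 0.83 and 1.77 (gap 5.02 ± 0.27). Both of these were near background in the fresh arrays and closely matched there. In the cultured arrays Stc2 was close too, whereas Dyrk3 was higher in the si-RL-labelled library. Metrnl, a secreted protein, had a gap of 4.58, Mgarp, a mitochondrial protein, one of 3.61, Inka2 one of 3.57 and Myh7, a myosin heavy chain, one of 3.50. Mgarp and Inka2 fell short of 2-fold with normexp background correction.

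Of 3 measured metallothionein genes, whose products bind zinc and copper, Mt1 and Mt2 were higher by wide margins. Mt2 read 0.74 and 0.62 against 5.04 and 3.70 (gap 2.97 ± 0.20), and Mt1, whose other measured probe lay on the same side, had a gap of 2.21 ± 0.06. Mt3 overlapped, at 0.90 and 0.35 against 0.13 and 0.39. The rest of the list of 11 measured metal-handling genes did not reach 2-fold. Lamp2, a lysosomal membrane protein, was almost constant within each side, at 0.08 and 0.12 against 1.94 and 1.93 (gap 1.81). Anxa2, annexin A2, had a gap of 1.95 and Scd2, a fatty acid desaturase, one of 1.80.

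Immunoglobulin genes were among the widest gaps downward. T cells do not transcribe functional immunoglobulin, whereas plasma cells make it in great amounts. Taking all immunoglobulin segments by symbol, a family chosen after its values were seen, 17 of 18 measured genes were lower in both cultured arrays, against 22.2% of all genes. At least 2-fold lower were 15, against 2.35% of all genes. The median of the family was -3.28. Iglv1, a lambda variable segment, read 4.74 and 4.55 in the fresh arrays and -3.24 and -1.28 in the cultured ones (gap -5.83 ± 0.21, or 57.1-fold lower). The kappa segments Igkv4-55 (2.82 and 2.98 against -2.37 and -3.39) and Igkv13-84 (0.96 and 0.92 against -3.22 and -3.18) had gaps of -5.19 ± 0.21 and -4.11 ± 0.23. The fresh arrays were closely alike, with a median difference of 0.16 without regard to sign. Similar V segments can share probe signal, so single segments are uncertain. Summed over the family, in units of the 75th percentile, the levels were 83.9 and 104 in the fresh arrays and 7.97 and 17.4 in the cultured ones.

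Other genes of the B lineage separated unevenly. Jchain, the joining chain made by plasma cells, read 4.53 and 4.49 in the fresh arrays and -3.83 in the si-RL-labelled library, and was not well above background in the si-Eos-labelled library. Mzb1, a chaperone of plasma cells, read 0.01 and -0.21 against -3.70 and -2.85 (gap -2.64 ± 0.07). The adaptor gene Blnk (gap -2.27) and the B cell surface genes Ly6d (-1.83) and Cd72 (-1.81) were lower as well. The B cell surface genes Cd79a and Ms4a1 overlapped, and Ighm, the heavy chain of IgM, had a gap of only -0.03. The list of B cell and plasma cell markers had 10 of 16 measured members lower (62.5%, beside 22.2% of all genes). Of these, 5 were 2-fold lower (31.3%, beside 2.35% of all genes), or 8 without the si-Eos-labelled library. The 1 higher member was Cd24a, which T cells also express. Ly6d and Cd24a fell short of 2-fold with normexp background correction. The 8 defining markers summed to 38.4 and 59.1 in the fresh arrays and to 5.19 and 14.7 in the cultured ones. Jchain and Ighm made up most of the fresh sums, and Ighm, also in the immunoglobulin family, most of the cultured sums. The sums thus say little of the other markers, and Pax5 was not well above background in either fresh array. In such bulk samples fewer cells of a type and less RNA per cell cannot be told apart. The part of such cells in the other lower genes was not tested.

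**Figure D3:**
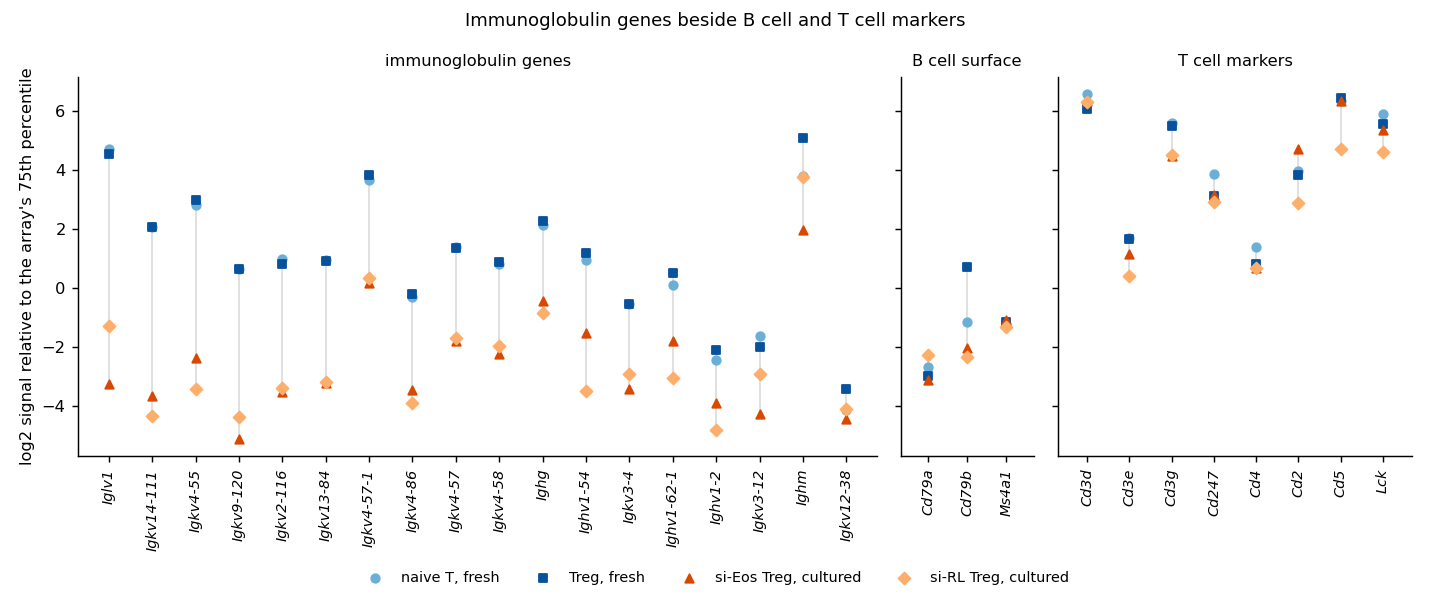
Level of each gene on each array (vertical axis, log2 signal relative to the array's 75th percentile) for the 18 measured immunoglobulin genes, 3 B cell surface genes and the 8 T cell markers. Blue symbols are the fresh arrays and orange symbols the cultured arrays. Orange lies far below blue for most immunoglobulin genes, whereas Cd79a, Ms4a1 and most T cell markers have blue and orange close together or mixed.

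Interferon-stimulated genes were lower in both cultured arrays. Of 37 measured members, 27 were lower (73.0%, against 22.2% of all genes) and 1 was higher (Irgm2, gap 0.09). At least 2-fold lower were 11 (29.7%, against 2.35% of all genes). The list median was -1.07. Fresh naive T cells and Treg differed on this list by a median of 0.41 without regard to sign, and 4 of the 37 members were 2-fold apart between them. The cultured libraries lay farther apart, by a median of 0.69, with 15 members 2-fold apart in either direction. Ifit3, which binds viral RNA complexes, read 1.30 and 0.33 in the fresh arrays and -3.20 and -2.97 in the cultured ones (gap -3.30 ± 0.22, or 9.82-fold lower). Rtp4 read 4.13 and 3.65 against -0.33 and 1.19 (gap -2.46 ± 0.20). Rsad2 (viperin), which blocks viral RNA synthesis, read -1.90 and -2.62 against -5.02 and -4.72, near background (gap -2.10 ± 0.34). In each of the 3, even the higher cultured level lay well under the lower fresh one.

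The regulators of the pathway were lower with their targets. Irf7, which amplifies interferon production, read 0.65 and 0.07 against -2.32 and -1.64 (gap -1.71). Usp18, which dampens interferon receptor signalling, read 2.29 and 1.88 against 0.40 and -1.62 (gap -1.48). Irf9 had a gap of -0.94 and Stat2 one of -0.10. The antiviral enzymes Oas1a (-1.58) and Oas3 (-1.28) and the GTPase Mx2 (-1.92) were 2-fold lower. Oas2 was not well above background in either cultured array and was at least 8.15-fold lower. Genes that also answer to interferon-γ, such as Igtp, Gbp4, Irgm1 and Iigp1, overlapped: Iigp1 read 2.21 and 3.07 in the fresh arrays and 4.44 and 0.95 in the cultured ones. With normexp background correction 7 members were 2-fold lower in place of 11, and Usp18 and Oas3 were among those that fell short.

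Promoters of these genes were searched for the letters GAAANNGAAA, a form of the interferon-stimulated response element, on both strands of the same 250 bases. Only 25 of the 37 measured members had a RefSeq window in the table, under 80%, so a comparison of shares is void; among all 27025 genes with a window, 936 (3.46%) held the motif. Of the 11 members 2-fold lower, 6 had a window and 4 of these held a match. Those 4 are printed over 150 bases, with matches in capitals, at Ifit3 chr19:34583379-34583528, plus strand; Rsad2 chr12:26456453-26456602, minus strand; Oas1a chr5:120907526-120907675, minus strand; and Oas3 chr5:120777660-120777809, minus strand.
Ifit3: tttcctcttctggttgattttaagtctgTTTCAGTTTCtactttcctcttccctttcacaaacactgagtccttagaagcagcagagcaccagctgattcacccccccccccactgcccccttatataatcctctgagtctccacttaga
Rsad2: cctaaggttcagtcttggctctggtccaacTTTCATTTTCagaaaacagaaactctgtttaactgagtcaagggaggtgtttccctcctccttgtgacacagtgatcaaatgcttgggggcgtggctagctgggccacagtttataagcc
Oas1a: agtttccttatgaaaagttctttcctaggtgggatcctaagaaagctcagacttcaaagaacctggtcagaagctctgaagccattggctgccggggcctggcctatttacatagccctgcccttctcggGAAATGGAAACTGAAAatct
Oas3: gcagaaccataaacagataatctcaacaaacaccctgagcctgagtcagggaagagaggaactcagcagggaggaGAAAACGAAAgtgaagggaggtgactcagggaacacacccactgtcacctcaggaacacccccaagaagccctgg
Oas1a held 2 overlapping matches next to its start. The windows of Irf7 and Samd9l held no match to these letters, which says nothing of the factors that bind there.

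Immediate early genes, which cells transcribe within minutes of a stimulus, were lower in 16 of 34 measured members (47.1%, beside 22.2% of all genes). They were 2-fold lower in 9 (26.5%, beside 2.35% of all genes), with a list median of -0.81. Fos, a subunit of the AP-1 factor, read 5.31 and 4.94 in the fresh arrays, 0.04 in the si-Eos-labelled library and 2.86 in the si-RL-labelled library (gap -2.08 ± 0.07). Dusp1, a phosphatase of MAP kinases, read 5.48 and 5.75 against 1.69 and 3.33 (gap -2.16 ± 0.20). Zfp36, which destabilises cytokine mRNAs, read 3.89 and 3.81 against 0.68 and 1.13 (gap -2.68 ± 0.20). The AP-1 genes Junb and Jund were lower by smaller gaps of -1.35 and -1.04, and Klf6 and Klf4 by -1.10 and -1.06.

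The list was not uniform. Egr1, another classical member, was higher in both cultured arrays, at 2.55 and 2.49 against 3.32 and 3.42 (gap 0.78), and Gadd45b barely so (0.04). Egr2 read 1.25 and 2.38 against 4.80 and 1.54, and Nr4a2 read -1.25 and 0.02 against 1.04 and -3.33, so both overlapped with the cultured libraries far apart. In the T cell receptor target Nr4a1 the cultured arrays were lower by -0.68. Without the si-RL-labelled library, 15 members were 2-fold lower and 5 were 2-fold higher, and without the si-Eos-labelled library, 12 were lower and none higher. Normexp background correction left 4 of 34 at 2-fold lower, without Junb, Jund, Klf6 and Klf4. Junb also fell short with quantile normalization, and Jund and Klf6 with median scaling.

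**Figure D4:**
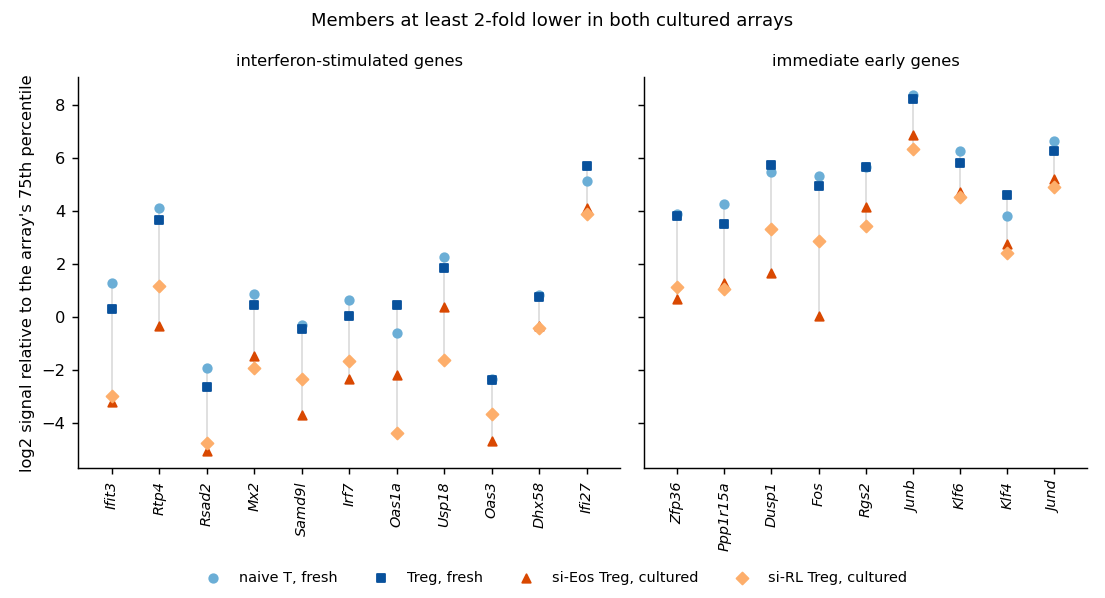
Level of each gene on each array (vertical axis, log2 signal relative to the array's 75th percentile) for the 11 interferon-stimulated and 9 immediate early genes with a gap of at least 2-fold downward, ordered by gap. Both orange symbols (cultured) lie below both blue symbols (fresh) in every gene shown, and Fos, Oas1a and Usp18 show the cultured libraries far apart.

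T cell receptor signalling genes were lower in 12 of 40 (30.0%, beside 22.2% of all genes) and higher in 2, with a median of -0.44. Only 2 were 2-fold lower (5%, beside 2.35% of all genes), so the list lay not far from the overall shares. Without the si-RL-labelled library 11 were 2-fold lower, without fresh Treg 6 and without the si-Eos-labelled library 5. The 2 were the membrane adaptors Sit1, at 3.50 and 2.98 against 0.85 and 1.45 (gap -1.53), and Lax1 (gap -1.18). Of the receptor's own chains, Cd3g came close to 2-fold, at 5.60 and 5.50 against 4.49 and 4.52 (gap -0.98). Cd3e was lower by less, at 1.70 and 1.67 against 1.17 and 0.42, while Cd3d and Cd247 overlapped. Among surface receptors Cd96 was lower, at 2.98 and 3.08 against 1.20 and 0.47 (gap -1.78), and Slamf6 had a gap of -1.31 between uneven cultured levels of -2.08 and 0.81. Sit1, Lax1 and Slamf6 fell short of 2-fold with normexp background correction. Tnfsf8, the CD30 ligand, was higher (gap 1.36), and Tnfsf4, the OX40 ligand, was at least 35.1-fold higher where naive T cells were not well above background.

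The lists that define the cell types mostly overlapped, which the counting rule makes likely because their genes differ between the fresh arrays. Fresh Treg and naive T were 2-fold apart in 29 of 31 measured Treg signature genes and in 15 of 27 naive and quiescence genes. The overlap therefore says little about culture. Of 31 Treg signature genes, 25 overlapped, as did 54.4% of all genes, and 6 were higher (19.4%, beside 23.4% of all genes). Gzmb, Socs2 and Cish were the 3 higher by 2-fold (9.68%, beside 2.04% of all genes). That count was 14 without fresh Treg and 15 without the si-RL-labelled library. Penk read -1.52 and 5.06 in the fresh arrays and 6.94 and -2.29 in the cultured ones, so fresh Treg and the si-Eos-labelled library were high and the other arrays low. Of 27 naive and quiescence genes, 20 overlapped and 6 were lower (22.2%, beside 22.2% of all genes). None reached 2-fold, whereas 6 were 2-fold lower without fresh Treg and 11 without the si-RL-labelled library. Tcf7 read 4.02 and 2.84 against -0.44 and 4.09. Within that list Bach2, a repressor of effector programmes, was higher in both cultured arrays, at 1.88 and 1.57 against 2.71 and 2.80 (gap 0.84).

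Some wide gaps downward belonged to none of the lists. Dtx1 (Deltex), a Notch target, read 3.84 and 3.74 against -2.04 and -1.69 (gap -5.43 ± 0.21, or 43.1-fold lower), at chr5:120940886-120940945 (mm8). Rnf144a, a ubiquitin ligase, read 1.18 and 1.34 against -2.78 and -4.19 (gap -3.97). The receptor gene Lgr4 and the endogenous retroviral locus Erv3 had gaps of -3.21 and -3.19, and both read far lower in the si-RL-labelled library, at -4.14 and -4.22. The lower genes were also less often current RefSeq genes: 168 of 387 (43.4%) had no current symbol, compared with 37 of 335 higher genes and 19.5% of all measured genes. Where another probe of a gene was measured, it lay on the opposite side in 13 of 77 lower genes (16.9%) and in 5 of 115 higher genes (4.35%).

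Several cell programmes did not separate by 2-fold. Ribosomal proteins had 43 of 56 genes overlapping and 13 lower (23.2%, beside 22.2% of all genes), with a median of -0.28. Of the 13, 1 (Rpl14, gap -1.29) was past 2-fold. No gene reached 2-fold among those for cholesterol synthesis (24 measured), aminoacyl-tRNA synthetases (19), ribosome biogenesis (34), the proteasome (37), the circadian clock (17) and the oxidative stress response (16). This too depended on single arrays. Without the si-RL-labelled library, 11 cholesterol synthesis genes were 2-fold higher and their median was 1.08, while without the si-Eos-labelled library 3 were 2-fold lower and the median was -0.49. For the other 5 lists, leaving out an array gave at most 3 genes 2-fold apart in 1 direction. The ER stress and amino acid list split, with Sesn2 (3.68) and Trib3 (1.13) higher and Ppp1r15a (-2.24) and Dnajb9 (-1.50) lower; 8 were higher without the si-RL-labelled library and 4 lower without the si-Eos-labelled library. Heat shock chaperones had 9 of 24 lower (37.5%, beside 22.2% of all genes), with Dnajb4 past 2-fold (gap -1.66) and Hspa1a at -0.71. Without the si-Eos-labelled library 4 heat shock and 3 ribosomal protein genes were 2-fold lower. Rpl14 and Dnajb9 fell short of 2-fold with normexp background correction, and Trib3 with its probes averaged.

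**Figure D5:**
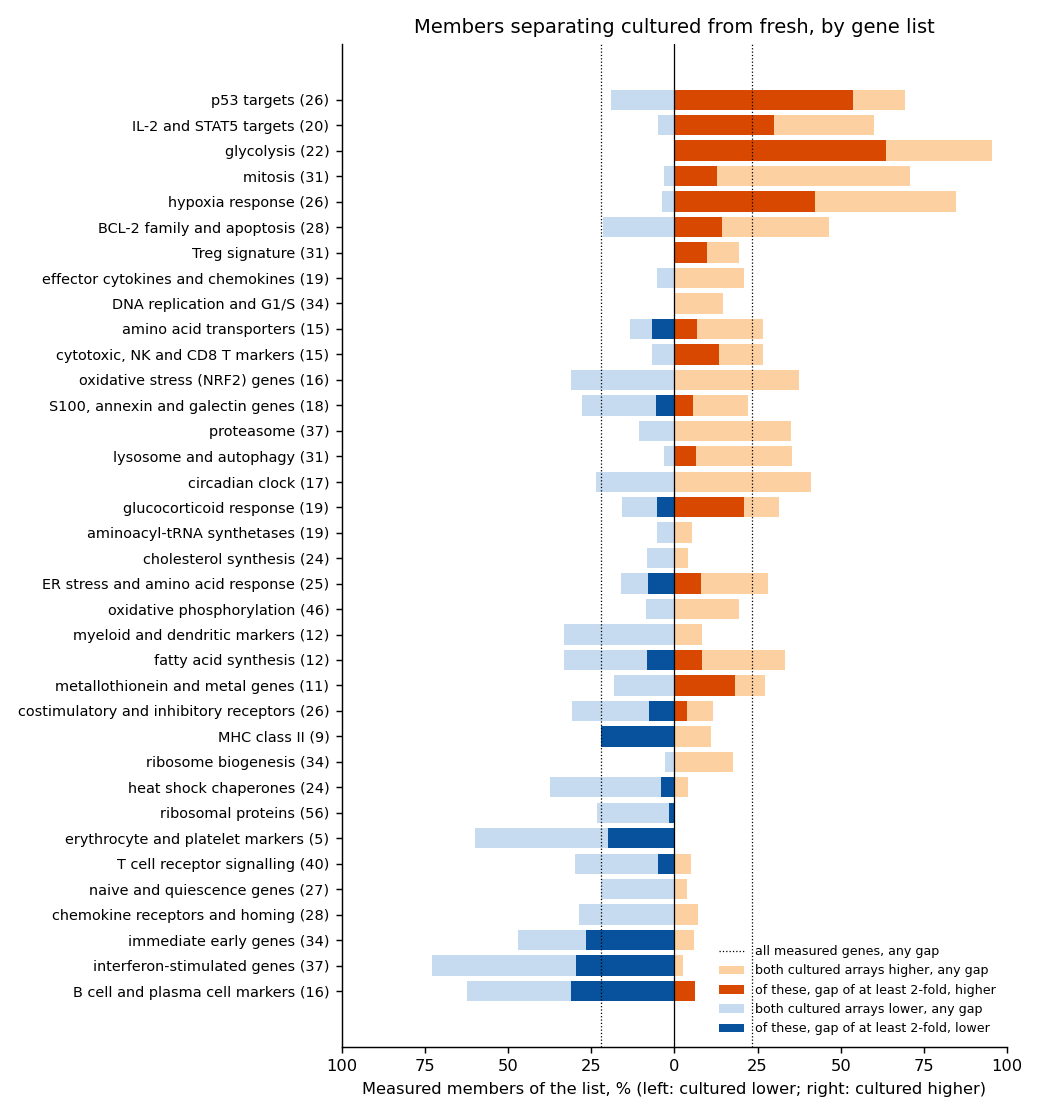
Share of each gene list's measured members (number in brackets) whose cultured arrays both lay above (right, orange) or below (left, blue) both fresh arrays, with darker bars for gaps of at least 2-fold, ordered by list median. Dotted lines mark the shares over all measured genes, 23.4% upward and 22.2% downward. Glycolysis, hypoxia response, mitosis and p53 targets reach farthest to the right and interferon-stimulated genes farthest to the left.

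Genes above background on 1 side alone give only a bound. Well above background in both cultured arrays and in neither fresh array, by at least 2-fold, were 58 genes, and 83 genes were so in the reverse direction. Akr1c18, a steroid-metabolising enzyme, read 3.54 and 0.43 in the cultured arrays and was at least 46.0-fold higher. The laminin chain gene Lama5 (2.37 and 0.06) was at least 31.8-fold higher, and the lipoprotein receptor gene Vldlr (-0.65 and 1.41) at least 21.6-fold. In the reverse direction the kappa segment Igkv6-14, at -0.53 and 0.10 in the fresh arrays, was at least 20.0-fold lower. The sodium-proton exchanger gene Slc9a4 and the membrane protein gene Tmem100 were at least 8.30-fold and 8.02-fold lower.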

How the data were processed

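The scanner output that the authors deposited gives linear spot intensity, already background-subtracted but not scaled between arrays, and was written by version 9.5.3.1 of Agilent's Feature Extraction software, per the file headers. RNA was amplified linearly and labelled with Cy3, per the labels' protocols, and probes were placed on mm8, per the file headers. The authors' deposited value table held the same intensity values (median ratio 1.00, 100% of spots within 0.5%; column medians 33.2, 50.5, 38.5 and 31.5).

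The processed signal was taken to log2 and set against the 75th percentile (signals of 262 to 392) of 41169 non-control probes of its array, after 71 to 94 flagged spots per array were left out. Each gene was read from its brightest probe, and names were updated through RefSeq tables. A gene counted as measured if the probe stood well above background on all 4 arrays; otherwise "at least N-fold" sets the lower array of the bright side against the higher of the dim side's levels, each taken as no less than the lowest signal well above background on its array. The number of arrays limits the precision. The 36 gene lists (1029 entries, 1011 on the array) and the members were chosen with earlier results of these data known. The rule named the 15 largest gaps each way, passing over sequence and locus names (some with wider gaps) and genes whose probes disagreed in side, then up to 4 members per list each way, and up to 8 genes each way above background on 1 side only. Cisd3 met the rule but was left out, since its probe's position is on another chromosome than the gene. List members that did not separate were named as contrasts. Further list members past 2-fold, and Cdkn1a, Jchain and Tnfsf4, which were below background on 1 array, were named after their values were seen. The counting was tested on simulated data. Alternatives covered scaling, background correction (limma 3.58.1, normexp, offset 50), the filter on dim probes, the choice of probe, the fold and leaving out each array.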

Additional observations from a re-analysis of the deposited data

How the results depend on the processing

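Scaling to array medians (347 higher, 367 lower by 2-fold), quantile normalization (323 and 387) and averaging a gene's probes (308 and 369) kept all 4 counts within 1.5 times. Spike-in scaling gave 185 and 601 by 2-fold, and 1744 and 5945 by any gap. Normexp correction gave 224 and 210 by 2-fold, of which 152 and 201 were genes counted before, and 6059 lower by any gap. Without a filter on dim probes the counts were 639 and 689, with 6188 higher by any gap, and with a gene measured on both arrays of 1 side the lower count was 593. At 1.5-fold, 848 and 824 genes counted, at 3-fold 116 and 173, and at 4-fold 60 and 125. Leaving out each array in turn, which can only widen gaps, gave 424 to 1136 higher and 566 to 1278 lower genes by 2-fold, and 5205 to 7248 and 4816 to 6796 by any gap. No gene 2-fold apart became 2-fold apart the other way under these settings, though looser filters and leaving out an array could not have turned one. Of 109 genes 2-fold apart that the rule or the text named, 97 stayed so with spike-in scaling and 81 with normexp correction. With median scaling 104 stayed so, and 105 did with quantile normalization and with probes averaged. All 109 stayed so under the looser filters and with an array left out, which could give no other result.

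List medians turned sign under at least 1 setting in 25 of 36 lists: in 22 of the 23 with a median under 0.5 in size and in 3 of the 13 others. With an array left out, among those 3 the Treg signature ran from -0.80 (without naive T; -0.52 without the si-Eos-labelled library) to 2.61. Effector cytokines and chemokines ran from -0.20 (without the si-Eos-labelled library) to 1.39, and went to -0.051 with normexp correction. DNA replication ran from -0.022 (without naive T) to 1.22. The causes were not tested. Dim probes limit the comparison, since 11144 genes were not measured on all 4 arrays. No paired analysis was possible because each group was 1 array.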
